A study of Mus musculus with 8 samples.

Results

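The 6 genes described here encode the proton channel Hvcn1 and subunits of the phagocyte NADPH oxidase: Cybb, Cyba, Ncf1, Ncf4 and the GTPase Rac2. They were found by symbol among 20692 genes, and the TPM (a level corrected for transcript length and library size) and estimated counts of their RefSeq targets were summed per gene. RNA came from about 1000 td-Tomato+ cells per library, sorted from both sides of the central amygdala of male mice, 1 mouse per library. PkcdRed mice carried PKC delta-type::Cre with Rosa::loxP-STOP-loxP-td-Tomato and were 9 weeks (libraries 1 and 2) or 18 weeks old (libraries 3 and 4). SstRed mice carried SST::Cre with the same td-Tomato reporter and were 8 weeks (libraries 1 and 2) or 20 weeks old (libraries 3 and 4). Cre was under Prkcd or Sst control, and its reporter stays on in any cell in which Cre was once active. The set was chosen by its levels in PkcdRed against SstRed libraries, so for its members that contrast is a description and carries no test.

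The phagocyte oxidase passes electrons from NADPH across a membrane to oxygen and makes superoxide. Its catalytic core is a membrane heterodimer of the Cybb and Cyba proteins. Cytosolic proteins, among them those encoded by Ncf1 and Ncf4, join this core together with a Rac GTPase when the cell is stimulated. Each electron that leaves moves charge and leaves acid behind, and the voltage-gated channel Hvcn1 lets protons follow. In the brain these genes are best known from microglia, the resident phagocytes.

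Library totals were 964361 to 2522749 estimated counts in older mice (18 or 20 weeks) and 10316149 to 18242496 in younger mice (8 or 9 weeks), so age class and depth cannot be told apart. The labels describe the sorted cells as neural. The 8 neuron markers summed to 108 to 573 TPM in PkcdRed libraries and 118 to 507 TPM in SstRed libraries. The 12 microglial markers summed to 28585 to 46645 TPM in PkcdRed libraries and 456 to 5178 TPM in SstRed libraries, and all 12 were higher in every PkcdRed than in every SstRed library. Oligodendrocyte markers summed to 11925 to 30025 TPM in PkcdRed and 10868 to 59911 TPM in SstRed libraries. Astrocyte markers summed to 343 to 3908 TPM in PkcdRed and 2641 to 6829 TPM in SstRed libraries. Endothelial markers summed to 234 to 3961 TPM in PkcdRed and 0.712 to 3621 TPM in SstRed libraries. Of the markers of inhibitory neurons, the GABA synthesis genes Gad1 and Gad2 were above 0 TPM in all 8 libraries, with Gad1 at 1.71 to 107 TPM in PkcdRed and 4.55 to 52.2 TPM in SstRed libraries. The vesicular GABA transporter gene Slc32a1 was at 0 TPM in PkcdRed libraries 3 and 4 and in SstRed libraries 2 and 4. Fewer cells of a type and less RNA per cell cannot be told apart in such bulk libraries. The part of the microglial markers in the differences below was not tested.

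Of the 6 genes, Hvcn1, Cyba, Ncf1 and Rac2 were higher in all 4 PkcdRed libraries than in all 4 SstRed libraries. Ncf4 overlapped between the populations, and Cybb was nearly confined to 1 PkcdRed library. Over all 16944 genes with any TPM, 2.71% lay higher in every PkcdRed library, and since the set was chosen for this contrast nothing is read from its 4 of 6. 5 of the 6 passed the expression filter that 11328 genes passed, and Cybb did not.

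**Figure D1:**
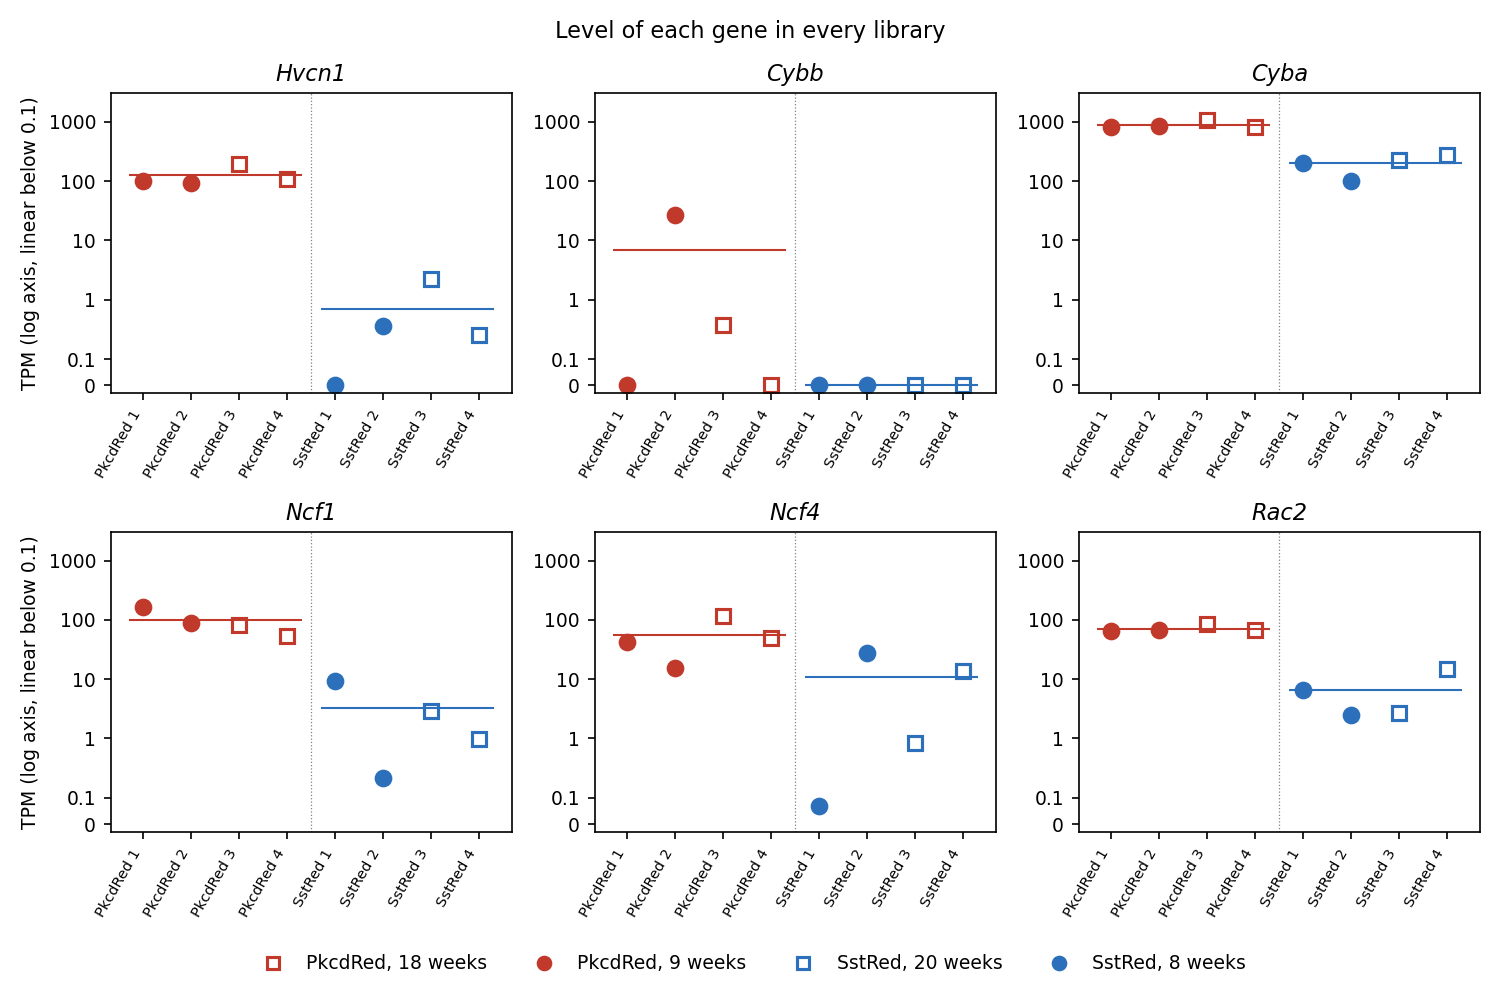
TPM of each of the 6 genes in every library on a log axis that is linear below 0.1 TPM, PkcdRed (red) left of SstRed (blue), with open squares for 18 to 20 week mice, filled circles for 8 to 9 week mice and lines for the population means. Hvcn1 sits at 92.3 to 195 TPM in PkcdRed and 0 to 2.20 TPM in SstRed libraries, while Ncf4 overlaps and Cybb stands at 27.1 TPM in PkcdRed library 2 alone.

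Cyba (chromosome 8, 122424771 to 122432940, minus strand, GRCm38) encodes the small chain of the membrane core, which stabilises the catalytic chain. It had 809, 844, 1093 and 808 TPM in PkcdRed libraries 1 to 4, against 204, 99.5, 230 and 274 TPM in SstRed libraries 1 to 4. The populations did not overlap, and the lowest PkcdRed library was still above the highest SstRed library. Mean levels were 889 ± 137 TPM in PkcdRed and 202 ± 74.2 TPM in SstRed libraries (SD, n = 4 each), a ratio of 4.4. Cyba was the most abundant of the 6 genes in each of the 8 libraries, and the only one above 90 TPM in every SstRed library. Its reads came almost wholly from the RefSeq transcript of 759 bases. The shorter form of 675 bases took 5.22% of the Cyba TPM in PkcdRed library 3, 2.12% in SstRed library 4 and none in the other 6 libraries.

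Cybb (chromosome X, 9435252 to 9487766, minus strand) encodes the catalytic chain, which carries the haem and flavin groups. It had 0, 27.1, 0.380 and 0 TPM in PkcdRed libraries 1 to 4, against 0 TPM in each of the 4 SstRed libraries. The level in PkcdRed library 2 rested on 917 reads (88.9 CPM, counts scaled to library size), and PkcdRed library 3 held a single read. In PkcdRed library 1, the deepest of all, 0 reads allow up to 3, which is 0.164 CPM, and in the SstRed libraries the limit is 0.187 to 1.92 CPM. These limits take in counting error alone, because PCR copies of 1 molecule are read more than once. Thus 98.6% of the Cybb TPM of the PkcdRed population lay in 1 library. Among 3568 genes whose PkcdRed mean was within 0.5 to 2 times that of Cybb, 382 (10.7%) had over 90% of their PkcdRed TPM in 1 library.

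PkcdRed library 2 also stood apart in markers of border macrophages, the phagocytes of the brain's coverings and vessels. Its 7 markers summed to 510 TPM there, against 13.2 to 83.0 TPM in the other 3 PkcdRed libraries and 0.111 to 3.61 TPM in SstRed libraries. Pf4, a platelet-type chemokine of these macrophages, had 382 TPM, and Mrc1 (the mannose receptor), Ms4a7 and Cbr2 had 19.5, 24.6 and 81.0 TPM in that library. Pf4 was also found in PkcdRed libraries 1, 3 and 4, at 12.4, 35.6 and 56.4 TPM, and was at 0 TPM in the SstRed libraries. Cbr2 had 25.3 TPM in PkcdRed library 4, and Mrc1 had 0.619 and 1.69 TPM in PkcdRed libraries 1 and 3. These markers were thus not confined to the library with the Cybb reads. Cd209f and Lyve1 were at 0 TPM in all 4 PkcdRed libraries. Cd163 went the other way, with its highest level, 3.61 TPM, in SstRed library 3. It had 2.11 TPM in PkcdRed library 2 and 0.121, 0.411 and 1.34 TPM in PkcdRed libraries 1, 3 and 4. Whether border macrophages gave the Cybb reads was not tested.

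Ncf1 (chromosome 5, 134220053 to 134229628, minus strand) encodes the organiser subunit, whose phosphorylation starts assembly. It had 167, 89.2, 82.3 and 52.6 TPM in PkcdRed libraries 1 to 4, against 9.20, 0.216, 2.93 and 0.973 TPM in SstRed libraries 1 to 4. The populations did not overlap, with the nearest pair at 52.6 TPM in PkcdRed library 4 and 9.20 TPM in SstRed library 1. Mean levels were 97.8 ± 48.9 TPM in PkcdRed and 3.33 ± 4.08 TPM in SstRed libraries (SD, n = 4 each). SstRed library 1 held 261 of the 277 SstRed reads, and it also had the highest microglial sum of its population, 5178 TPM. Of 3 RefSeq targets of Ncf1, the one of 2722 bases took 99.5% or more of the TPM in every library.

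Ncf4 (chromosome 15, 78244164 to 78262582, plus strand) encodes the subunit that binds phosphoinositide on the phagosome. It had 42.4, 15.4, 116 and 48.9 TPM in PkcdRed libraries 1 to 4, against 0.0708, 28, 0.842 and 14.0 TPM in SstRed libraries 1 to 4. SstRed library 2, with 322 reads, lay above PkcdRed library 2, with 144 reads, so the populations overlapped. SstRed libraries 1 and 3 held 1 read each. Ncf4 made up 21.4% of the summed TPM of the 6 genes in SstRed library 2 and 4.6% or less in the other 3 SstRed libraries. SstRed library 2 also had the highest oligodendrocyte marker sum of its population (59911 TPM, with 10868 to 25788 TPM in the other 3) and the highest neuron marker sum (507 TPM). SstRed library 4, next in Ncf4, had 11858 TPM of oligodendrocyte and 141 TPM of neuron markers. The part of that library's other cells in its Ncf4 level was not tested.

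Rac2 (chromosome 15, 78559169 to 78572783, minus strand) is the Rac GTPase of blood cells and serves as the switch of the assembled oxidase. It had 66.1, 67.5, 84.1 and 67.3 TPM in PkcdRed libraries 1 to 4, against 6.50, 2.47, 2.64 and 14.9 TPM in SstRed libraries 1 to 4. The populations did not overlap. The estimated count was not whole (tolerance 0.01) in any of the 8 libraries, so some Rac2 reads were divided with another target. The near relative Rac1, found in nearly all cells, had 755, 209, 167 and 113 TPM in PkcdRed libraries 1 to 4, against 483, 628, 157 and 65.1 TPM in SstRed libraries 1 to 4.

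Hvcn1 (chromosome 5, 122206805 to 122242297, plus strand) had 102, 92.3, 195 and 109 TPM in PkcdRed libraries 1 to 4, against 0, 0.355, 2.20 and 0.256 TPM in SstRed libraries 1 to 4. Of the 6 genes it had the highest ratio of means, 177, leaving aside Cybb, for which no ratio can be formed. The SstRed libraries held 14 reads of Hvcn1 in all, and the PkcdRed libraries 5268. SstRed library 1 had 0 reads among 14295789, a limit of 0.210 CPM, although its microglial sum was the highest of its population. The estimated count, summed over its targets, was not whole in 4 of the 8 libraries, so some reads there were divided with a target of another gene. Apart from this, the reads given to Hvcn1 were divided between its 2 RefSeq transcripts. The form of 2790 bases took 26.0%, 0%, 15.7% and 43.7% of the Hvcn1 TPM in PkcdRed libraries 1 to 4, and none in the 3 SstRed libraries with reads, and the form of 2652 bases took the rest. Hvcn1 overlaps Tctn1 in the annotation, as Cybb does Gm33784 and Ncf1 does LOC115490142, and whether the counting used strand is not stated in the sources used here.

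Fitted log2 fold changes (PkcdRed over SstRed, edgeR with a term for age class) were 8.29 for Hvcn1, 4.80 for Ncf1, 3.40 for Rac2, 2.37 for Ncf4 and 2.13 for Cyba. The SstRed library with the highest level was a different one for each of Hvcn1, Ncf1, Ncf4 and Rac2, and leaving it out widened the gap. Without SstRed library 3 the value for Hvcn1 was 9.25, without SstRed library 1 that for Ncf1 was 6.57, without SstRed library 2 that for Ncf4 was 4.72, and without SstRed library 4 that for Rac2 was 4.17. Other settings narrowed the gap, with Hvcn1 at 6.30 in limma on log2(TPM + 1), where low levels are damped, and at 7.68 without SstRed library 1, and Ncf4 at 1.77 without SstRed library 3. With 1 library left out, the ranges were 7.68 to 9.25 for Hvcn1, 4.46 to 6.57 for Ncf1, 3.09 to 4.17 for Rac2, 1.77 to 4.72 for Ncf4 and 1.88 to 2.47 for Cyba.

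Promoter sequence was at hand in the RefSeq table of GRCm38.p6 for 3 of the 6 genes, Ncf1, Cyba and Cybb. The 250 bases before each start are shown because these genes share a role in one enzyme and yet had different patterns over the libraries. Capitals mark matches to the interferon response element, searched on both strands as GAAA, any 2 bases, then GAAA. The Cybb window precedes a start that lies inside the gene span given above.
Ncf1, chr5:134229626-134229875, minus strand: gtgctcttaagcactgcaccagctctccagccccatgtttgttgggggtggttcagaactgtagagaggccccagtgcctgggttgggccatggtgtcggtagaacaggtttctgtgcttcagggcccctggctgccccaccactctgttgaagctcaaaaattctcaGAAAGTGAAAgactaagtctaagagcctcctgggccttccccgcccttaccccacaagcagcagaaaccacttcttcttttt
Cyba, chr8:122432941-122433190, minus strand: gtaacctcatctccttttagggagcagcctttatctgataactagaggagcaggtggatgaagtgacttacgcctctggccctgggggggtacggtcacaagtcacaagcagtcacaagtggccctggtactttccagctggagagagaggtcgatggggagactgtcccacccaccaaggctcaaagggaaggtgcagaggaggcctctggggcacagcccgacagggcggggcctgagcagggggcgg
Cybb, chrX:9469325-9469574, minus strand: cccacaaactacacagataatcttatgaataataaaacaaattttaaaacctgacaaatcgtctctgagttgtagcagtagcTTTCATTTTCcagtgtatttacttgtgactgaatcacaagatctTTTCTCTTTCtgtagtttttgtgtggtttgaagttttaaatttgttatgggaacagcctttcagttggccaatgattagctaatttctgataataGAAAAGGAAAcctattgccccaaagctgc
The Cybb window held 3 matches, 168 and 124 bases (both on the opposite strand) and 29 bases before the start. Ncf1 held 1 match, 82 bases before the start, and Cyba held none. Of 32851 promoter windows of the same length in the table, 2.98% held a match. The 3 other motifs searched had no match in these 3 windows on either strand. They were GAGGAA, the core of PU.1 sites (23.3% of all windows), GAGGAAGT, which contains it (2.44%), and the joint site of ETS and IRF factors, GGAA, any 2 bases, then GAAA (2.30%). GC content was 54.4% for Ncf1, 60% for Cyba and 34% for Cybb, where the median over all windows was 52.4%.

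The 6 genes differed in how evenly they were found among the PkcdRed libraries. Rac2 and Cyba were the most even, with coefficients of variation (SD over mean) of 12.1% and 15.4%. Of 3131 genes with a PkcdRed mean of at least 50 TPM, 1.44% were more even than Rac2 and 3.29% more even than Cyba, and the median was 53.8%. Hvcn1, Ncf1 and Ncf4 stood at 38.0%, 50% and 76.6%. The 12 microglial markers ranged from 16.6% to 66.0%, with a median of 28.2%.

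PkcdRed library 3 had the highest level of Hvcn1, Cyba, Ncf4 and Rac2, and it also had the highest microglial sum, 46645 TPM. Ncf1 did not follow this, with its highest level, 167 TPM, in PkcdRed library 1. In the order of mean levels, Cyba was above Hvcn1 in 4 of 4 PkcdRed libraries with no overlap of their ranges. The ranges of the neighbours Hvcn1 and Ncf1, Ncf1 and Rac2, Rac2 and Ncf4, and Ncf4 and Cybb overlapped, so their order does not exceed the spread. In SstRed libraries Cyba alone stood apart, and the 4 neighbours below it overlapped.

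**Figure D2:**
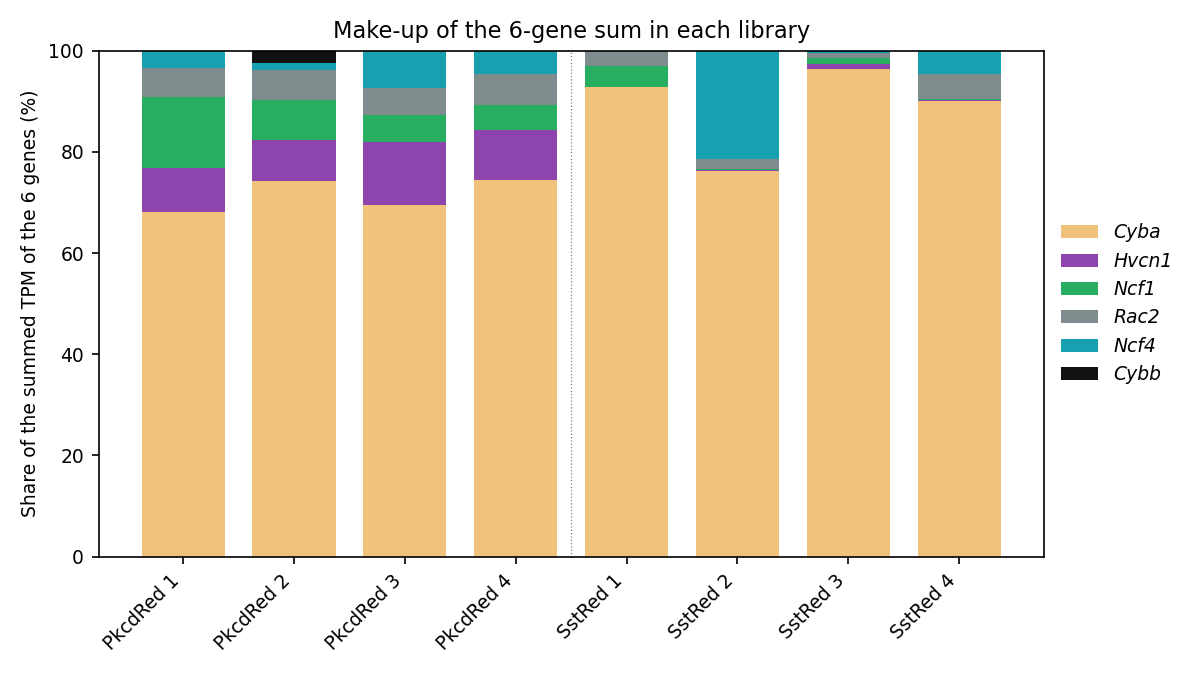
Share of each gene in the summed TPM of the 6 genes, as stacked bars from 0 to 100% for each library, PkcdRed left of SstRed. Cyba makes up 68.2 to 74.4% in PkcdRed and 76.2 to 96.4% in SstRed libraries, and Hvcn1 8.13 to 12.4% in PkcdRed and 0 to 0.921% in SstRed libraries.

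The summed TPM of the 6 genes was 1086 to 1570 in PkcdRed and 130 to 304 in SstRed libraries. Cyba made up 68.2 to 74.4% of it in PkcdRed libraries and 76.2 to 96.4% in SstRed libraries. Hvcn1 made up 8.13 to 12.4% in PkcdRed libraries and 0 to 0.921% in SstRed libraries. The SstRed shares of Hvcn1 rest on 14 reads in all. The set was chosen by these levels, so the shares are a description and nothing more is read from them.

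**Figure D3:**
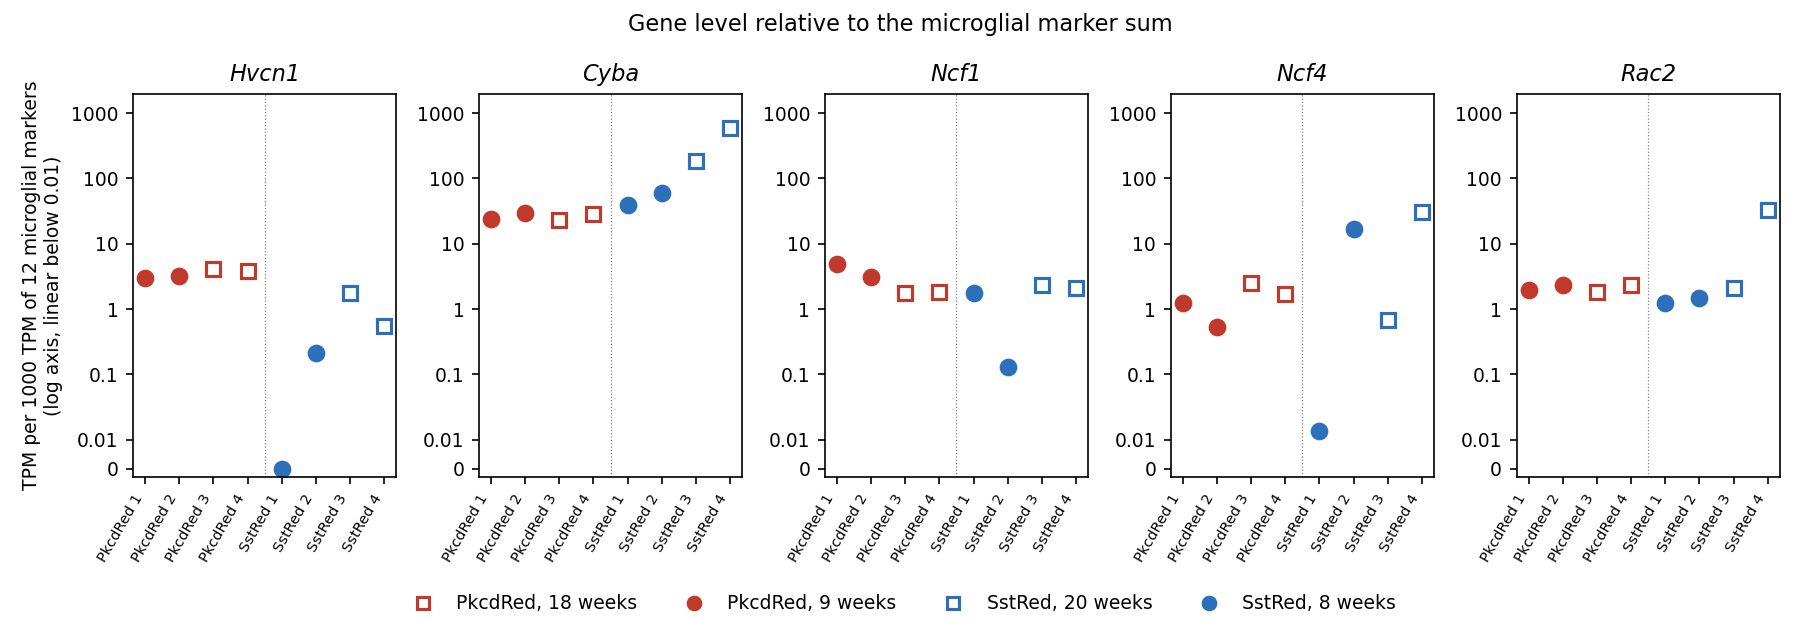
TPM of 5 genes per 1000 TPM of the 12 microglial markers in each library, on a log axis that is linear below 0.01, PkcdRed left of SstRed. PkcdRed libraries lie close together for Hvcn1 (2.99 to 4.18), Cyba (23.4 to 29.5) and Rac2 (1.80 to 2.36), while SstRed libraries are lower for Hvcn1 (0 to 1.76) and higher for Cyba (39.5 to 601).

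Levels were also set against the microglial marker sum of the same library, as a description. Per 1000 TPM of the 12 markers, Hvcn1 had 3.55 ± 0.542 TPM in PkcdRed libraries and 0.633 ± 0.783 TPM in SstRed libraries (SD, n = 4 each), with no overlap. The SstRed values of Hvcn1 rest on 14 reads in all. Cyba had 26.2 ± 3.12 TPM in PkcdRed libraries and 221 ± 261 TPM in SstRed libraries, so on this scale every SstRed library was above every PkcdRed library. The scale divides by a sum of 456 to 5178 TPM in SstRed and 28585 to 46645 TPM in PkcdRed libraries. The share of all genes without overlap on this scale was not computed, so nothing is read from the gaps of Hvcn1 and Cyba. Ncf1, Rac2 and Ncf4 overlapped on this scale. Rac2 had 1.80 to 2.36 TPM in PkcdRed libraries and 1.26, 1.5 and 2.11 TPM in SstRed libraries 1 to 3, whereas SstRed library 4, with the lowest microglial sum (456 TPM), had 32.8 TPM.

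Other blood cells that use the oxidase were looked for by their markers. Neutrophil markers summed to 9.46 to 28.9 TPM in PkcdRed and 16.9 to 166 TPM in SstRed libraries. Cxcr2, a chemokine receptor, was seen in all 8 libraries (8.77 to 28.9 TPM in PkcdRed and 15.8 to 23.0 TPM in SstRed libraries). Of the calprotectin genes, S100a8 had 0 TPM in all 4 PkcdRed libraries. S100a9 had 14.0 TPM in PkcdRed library 1 and 0 TPM in the other 3 PkcdRed libraries. In SstRed library 3, S100a8 had 98.6 TPM and S100a9 52.1 TPM, and both were at 0 TPM in the other SstRed libraries. Mpo and Camp had 0.467 and 5.48 TPM in PkcdRed library 4, Ltf had 0.68 TPM in PkcdRed library 3, and each was at 0 TPM elsewhere. Elane, Retnlg and Ngp were at 0 TPM in all 8. In all, 0 of 9 neutrophil markers were higher in every PkcdRed library, where 2.71% of all genes with any TPM were. Of the 9, 3 had no TPM in any library and lie outside that base. Monocyte markers summed to 6.79 to 69.9 TPM in PkcdRed and 2.20 to 103 TPM in SstRed libraries. Of the 6, 0 were higher in every PkcdRed library, against the same 2.71% of all genes. Ly6c2 had 43.9 and 5.02 TPM in SstRed libraries 3 and 4 and at most 0.39 TPM in the PkcdRed libraries. Ccr2 had 0.936 and 67.3 TPM in SstRed libraries 3 and 4 and at most 1.04 TPM in the PkcdRed libraries. Fn1 had 3.61 to 56.1 TPM in PkcdRed and 2.20 to 30.1 TPM in SstRed libraries, F13a1 had 0 to 13.5 TPM in PkcdRed and 0 to 0.172 TPM in SstRed libraries, and Plac8 and Chil3 were at 0 TPM in the PkcdRed libraries. B cell markers, tracked because B cells also use Hvcn1, summed to 0.980 to 61.7 TPM in PkcdRed and 0 to 3.43 TPM in SstRed libraries. Cd79a and Ms4a1 were at 0 TPM in all 8 libraries, and Cd79b had 24.9, 46.5, 31.2 and 0 TPM in PkcdRed libraries 1 to 4 and 0 TPM in SstRed libraries. Cd22 had 5.54, 15.2, 14 and 0 TPM in PkcdRed libraries 1 to 4, and at most 1.56 TPM in SstRed libraries. T and NK cell markers summed to 0.756 to 9.78 TPM in PkcdRed and 1.24 to 5.21 TPM in SstRed libraries.

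Age class was not used to choose the set, so it was tested across all genes with edgeR's quasi-likelihood test and Benjamini-Hochberg adjustment. None of the 5 tested genes passed in older (18 or 20 weeks) against younger mice (8 or 9 weeks), where 6 of all 11328 genes (0.053%) passed an adjusted p of 0.05 and 946 had an unadjusted p under 0.05. DESeq2 also called 0 of the 5, where it called 4.9% of all genes, and the lowest unadjusted p among them in edgeR was 0.153. Hvcn1 had 76.7 ± 93.9 TPM in older and 48.8 ± 56.3 TPM in younger mice (SD, n = 4 each). Its fitted log2 fold change was 1.30 ± 0.91 (SE; edgeR adjusted p 0.734). Ncf1 had 34.7 ± 39.7 TPM in older and 66.4 ± 78.2 TPM in younger mice. Its fitted log2 fold change was -1.49 ± 0.97 (SE; edgeR adjusted p 0.719), and 0.09 without SstRed library 1. Cyba, Ncf4 and Rac2 had log2 fold changes of 0.16 ± 0.49, 0.30 ± 1.57 and 0.29 ± 0.76 (SE; edgeR adjusted p 0.945 or more). These 3 turned negative when 1 library was left out, Cyba without SstRed library 2 (-0.03), Rac2 without SstRed library 4 (-0.49), and Ncf4 without PkcdRed library 2 or 3 or SstRed library 4 (-0.19, -0.22 and -0.02).

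**Figure D4:**
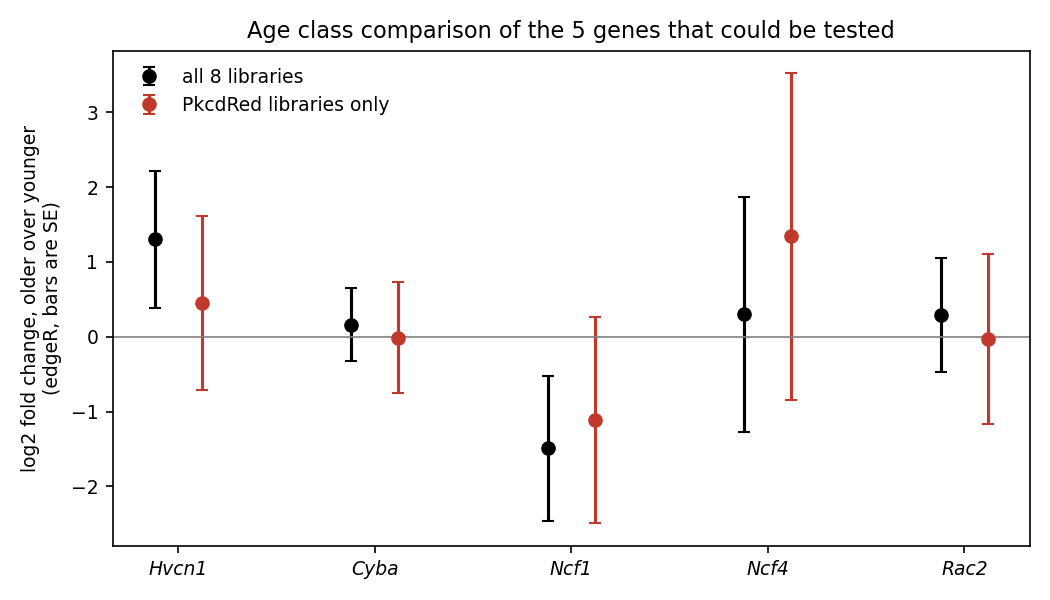
Log2 fold change of older over younger mice from edgeR for the 5 genes that could be tested, with SE bars, over all 8 libraries (black) and within PkcdRed libraries (red). All values lie between -1.49 and 1.34, and none passed the threshold.

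Within PkcdRed libraries, where these genes had most of their reads, the older mice had 152 ± 60.8 TPM of Hvcn1 and the younger 97.4 ± 7.16 TPM (SD, n = 2 each). Ncf1 had 52.6 and 82.3 TPM in older and 89.2 and 167 TPM in younger PkcdRed mice. Their log2 fold changes were 0.45 ± 1.16 and -1.11 ± 1.38 (SE), and those of Cyba, Rac2 and Ncf4 were -0.01 ± 0.74, -0.03 ± 1.13 and 1.34 ± 2.18. None of the 5 passed in edgeR (adjusted p 0.936 or more), where 1 of 11328 genes (0.00883%) did and 735 had an unadjusted p under 0.05. In the test of whether the population difference varied with age class, none of the 5 passed, and the lowest unadjusted p of the interaction in edgeR was 0.268, for Hvcn1. Over all genes 0 passed that test in edgeR, 467 had an unadjusted p under 0.05, and DESeq2 called 79.

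The other genes of the pathway were not part of the set and were tested between the populations. Their lists were drawn up with earlier results of these data known. The tests are therefore not independent of the contrast that chose the set. Of the 90 pathway genes tested, 2 were higher in PkcdRed libraries in edgeR (adjusted p of 0.05), both of them activators of oxidase assembly and 1 of them Vav1. None of the other 88 passed. DESeq2 called 20 of the 90 and 454 of all 11328 genes (4.01%), and in edgeR 756 of all genes had an unadjusted p under 0.05. Over all 11328 genes, 0.282% were called, all higher in PkcdRed libraries. The 12 microglial markers also stood higher in every PkcdRed library, and their part in these calls was not tested. Vav1, an exchange factor for Rac in blood cells, had 80.5, 31.0, 99.4 and 49.2 TPM in PkcdRed libraries 1 to 4, against 1.39, 0.568, 0.283 and 1.64 TPM in SstRed libraries 1 to 4. Its log2 fold change was 5.94 ± 0.91 (SE; edgeR adjusted p 0.0236). The Vav1 call ended without PkcdRed library 1, 3 or 4 (adjusted p 0.118, 0.11 and 0.0556) and without SstRed library 2, 3 or 4 (0.0543, 0.0893 and 0.0705).

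**Figure D5:**
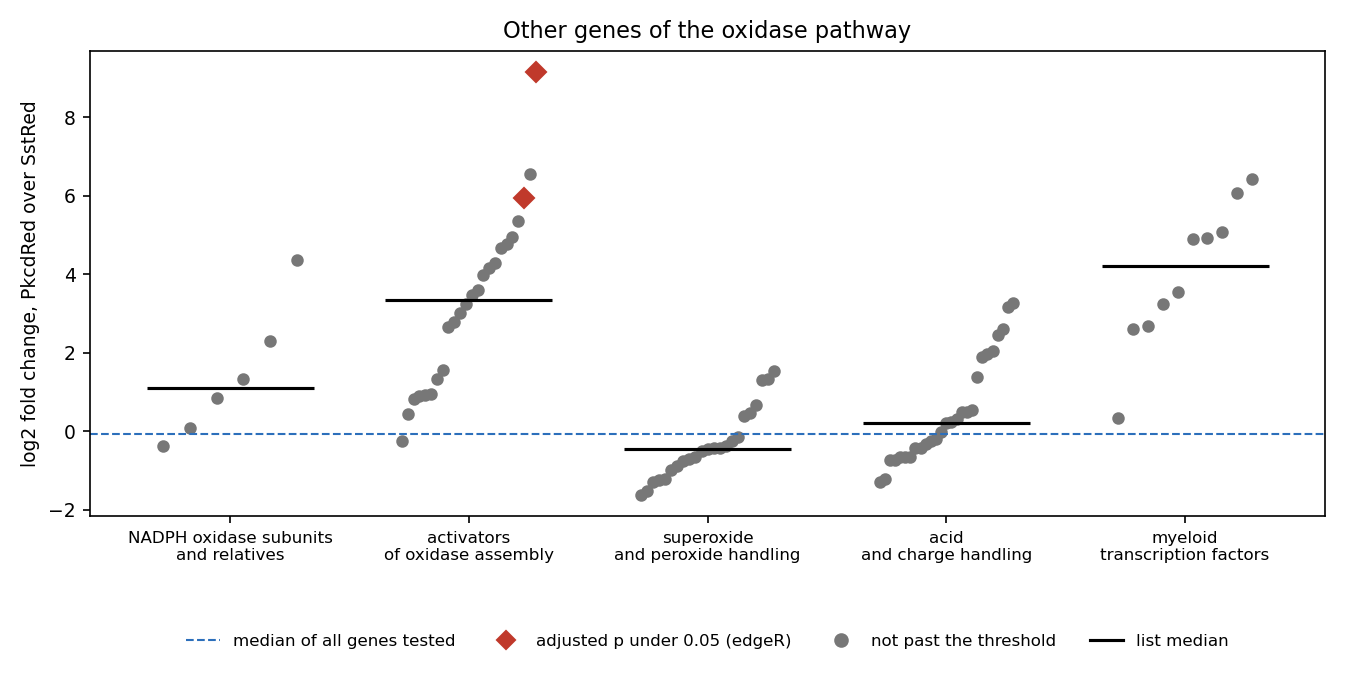
Log2 fold change, PkcdRed over SstRed, of every tested gene in 5 lists of the oxidase pathway, with list medians (black lines), the median of all genes tested (blue dashes, -0.08) and genes past an adjusted p of 0.05 in edgeR (red diamonds). The medians are 3.35 for activators of assembly and 4.22 for myeloid transcription factors, against -0.45 for superoxide and peroxide handling.

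Among the subunits and their relatives, 6 of 13 genes could be tested and 0 passed in edgeR (1 had an unadjusted p under 0.05, and DESeq2 called 1), with a median log2 fold change of 1.09. Cybc1, a chaperone of the membrane core, had 60.8, 63.2, 158 and 148 TPM in PkcdRed libraries 1 to 4, against 0, 0.747, 21.2 and 105 TPM in SstRed libraries 1 to 4 (log2 fold change 4.36 ± 1.80 SE, edgeR adjusted p 0.652), and it passed with no filter (0.014) and in DESeq2 (0.0128). Its log2 fold change was 1.82 with no age term (edgeR adjusted p 0.994), and 2.68 to 6.04 with 1 library left out, lowest without SstRed library 1 and 2.86 without SstRed library 2. Rac1 had a log2 fold change of 0.09 ± 0.50 (SE), the sign of which differed between alternatives, and Rac3 0.84 ± 1.74 (SE). Nox4 and Noxa1, the catalytic chain of a constitutive oxidase and an activator used by Nox1, were at 0 TPM in all 8 libraries. Nox3 had 0 TPM in all PkcdRed libraries and 0.664 and 9.84 TPM in SstRed libraries 3 and 4.

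Of the 29 activators of assembly, 24 could be tested, 23 had a positive fold change and the median was 3.35, where that of all genes was -0.08. Over all 11328 genes tested, 5356 had a positive fold change. In all, 12 of the 24 were higher in every PkcdRed library, as were 3.88% of all genes tested. They included the adaptor genes Tyrobp and Fcer1g, the kinase Lyn and the integrin chains Itgam and Itgb2, none of which passed the test over all genes in edgeR (adjusted p 0.114 to 0.434). Each of these 5 passed in 3 or 4 of the 16 alternatives. In the whole list, 12 genes had an unadjusted p under 0.05 in edgeR, and DESeq2 called 11. Prkcd, a kinase that phosphorylates the organiser subunit, is also the gene whose control elements drive Cre in the PkcdRed mice. It had 106, 157, 226 and 221 TPM in PkcdRed libraries 1 to 4, against 1.31, 0, 10.7 and 30.2 TPM in SstRed libraries 1 to 4 (log2 fold change 5.36 ± 1.36 SE, edgeR adjusted p 0.219), and it passed with no filter, in DESeq2 and in limma on log2(TPM + 1). Prkcb, the isoform that acts on the oxidase in many phagocytes, overlapped, with 57.5, 78.1, 15.3 and 28.9 TPM in PkcdRed libraries 1 to 4, against 13.1, 94.9, 7.11 and 0.878 TPM in SstRed libraries 1 to 4.

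Genes that handle the products of the oxidase had lower medians. Of 23 tested genes for superoxide and peroxide handling, 0 passed in edgeR (2 had an unadjusted p under 0.05, and DESeq2 called 0), 6 had a positive fold change and the median was -0.45. Of these, 3 were lower in every PkcdRed library, as were 3.05% of all genes tested. The peroxiredoxins Prdx1 and Prdx6, which remove peroxide, had log2 fold changes of -1.23 ± 0.49 and -1.24 ± 0.53 (SE; edgeR adjusted p 0.628 and 0.687). Of 27 tested genes for acid and charge handling, which include the proton pump of lysosomes, 0 passed in edgeR (4 had an unadjusted p under 0.05, and DESeq2 called 1), 14 had a positive fold change and the median was 0.21. A positive fold change was found for 5356 of all 11328 genes tested, so 14 of 27 is near the share over all genes. Of the 27, 1 gene was higher in every PkcdRed library and 1 was lower, where the shares over all genes tested were 3.88% and 3.05%. The higher one was Clic1, a chloride channel protein, with 354, 410, 930 and 395 TPM in PkcdRed libraries 1 to 4, against 78.9, 62.4, 185 and 233 TPM in SstRed libraries 1 to 4 (edgeR adjusted p 0.208). The lower one was Atp6v0e, a proton pump subunit, with 370, 117, 461 and 373 TPM in PkcdRed libraries 1 to 4, against 954, 561, 514 and 799 TPM in SstRed libraries 1 to 4 (edgeR adjusted p 0.765).

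All 10 myeloid transcription factors had a positive fold change, as did 5356 of all 11328 genes tested. Of the 10, 7 were higher in every PkcdRed library, where 3.88% of all genes tested were. In edgeR 0 passed and 7 had an unadjusted p under 0.05, and DESeq2 called 7, where it called 4.01% of all genes tested. Spi1, which encodes PU.1, a regulator of oxidase genes in myeloid cells, had 315, 231, 143 and 288 TPM in PkcdRed libraries 1 to 4, against 43.4, 60.7, 27 and 0.553 TPM in SstRed libraries 1 to 4. Its log2 fold change was 3.24 ± 0.92 (SE; edgeR adjusted p 0.298), and it passed with no filter (0.00957) and in DESeq2 (0.00858). Sall1 is also among the microglial markers, so the lists are not independent of each other.

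Genes most like the set were sought among 8072 other genes with a mean of at least 10 TPM, by Pearson's r between their log2(TPM + 1) and the mean standardised profile of the 6 genes over the 8 libraries. The 6 nearest were Arhgap45 (r = 0.990), Il10ra (0.987), Dennd1c (0.985), Tnfrsf1b (0.985), Nckap1l (0.984) and Gmip (0.982). Their mean levels were 27.7 to 101 TPM in PkcdRed and 0.210 to 0.855 TPM in SstRed libraries. The libraries fall into 2 populations, so any gene with a wide gap between them scores high on this measure. The members themselves had r of 0.965 (Hvcn1), 0.963 (Rac2), 0.955 (Cyba), 0.913 (Ncf1), 0.692 (Ncf4) and 0.518 (Cybb) with the profile they form.

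Ncf4 and Rac2 lie 297 kb apart on chromosome 15, and 10 genes between them have a target in the files. Of these, 2 genes, Csf2rb2 and Csf2rb, next to Ncf4, were higher in every PkcdRed library, as were 2.71% of all genes with any TPM, and they were singled out after their values were seen. Csf2rb encodes the shared chain of the interleukin 3, interleukin 5 and GM-CSF receptors, and Csf2rb2 a near relative. Csf2rb had 8.03 ± 3.52 TPM in PkcdRed and 0.457 ± 0.209 TPM in SstRed libraries, and Csf2rb2 4.38 ± 2.79 TPM in PkcdRed and 0.166 ± 0.138 TPM in SstRed libraries (SD, n = 4 each). Their log2 fold changes were 4.25 ± 1.52 and 4.67 ± 1.67 (SE; edgeR adjusted p 0.503 each). The other 3 tested neighbours, Tst, Kctd17 and C1qtnf6, had negative fold changes (-2.25, -1.02 and -2.70) and overlapped between the populations.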

How the data were processed

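Per the file headers, each deposited table lists RefSeq targets with length, estimated count and TPM, in the layout of kallisto output, and estimated counts need not be whole. The deposited TPM values are corrected for transcript length and scaled to a common total, so they keep no depth. Tools and build in the submitters' processing notes are BWA 0.7.12, kallisto 0.43.0 and mm10, with no role stated for BWA. In the deposited files, effective length is 199 bases under length for targets over 1000 bases, the same in every library.

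Targets were joined to genes through the RefSeq table of GRCm38.p6 (30076 targets), GENCODE names (151) or their accession alone (177 of 30404), which gave 20692 genes. Counts of a gene's targets were added up, then rounded. The tests used edgeR 4.0.16 in R 4.3.3 (TMM scaling, default expression filter by population, terms for age class and population, and a model of the 4 combinations for the comparison within PkcdRed and the interaction), with an adjusted p threshold of 0.05. The same code was run on simulated data, drawn with the fitted spread scaled down, so that run does not measure error rates in the real libraries. Alternatives were RLE scaling, no filter, a minimum of 10 CPM in 4 libraries, the Wald test of DESeq2 1.42.0, limma 3.58.1 on log2(TPM + 1) and log2(TPM + 0.1) for genes with a mean of at least 1 TPM, a fit with age class left out, a replicate block, and each library left out. The spread behind each p-value holds differences between mice and those of sorting and amplification.

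The members, gene lists and tests were chosen with earlier results of these data known. The rule for named genes takes the 6 members, up to 6 genes past the threshold per pathway list, Rac1, Rac3, Nox4, Cybc1, Prkcb, Prkcd and Spi1, and the 6 genes most like the members, of which some items are not reported here. Other genes were chosen after their values were seen, as were the neighbours of Ncf4 and Rac2 and the promoter motifs. Ly6g, Ighm and Duoxa1 were listed but were not analysed here.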

Additional observations from a re-analysis of the deposited data

Results flagged for a closer look

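In 37 groups of 4 libraries, the highest or lowest value was set against Dixon's 95% critical value, and 10 passed. Chance flags about 1 group in 20 where values are normal and groups independent. TPM values need not be normal and these groups share libraries, so no excess over chance is read from the 10. In PkcdRed libraries, Hvcn1 stood at 195 TPM in library 3 with the others at 92.3 to 109 TPM. Cyba stood at 1093 TPM in the same library with the others at 808 to 844 TPM, and Rac2 at 84.1 TPM with the others at 66.1 to 67.5 TPM. In CPM that library stood less apart, with Cyba at 364 CPM and 298, 340 and 265 CPM in libraries 1, 2 and 4. Rac2 had 143 CPM there and 123, 138 and 112 CPM in libraries 1, 2 and 4. PkcdRed library 3 was also the shallowest of all, with 964361 estimated counts. Cybb stood at 27.1 TPM in PkcdRed library 2 with the others at 0 to 0.38 TPM. The border macrophage markers of that library summed to 510 TPM with the others at 13.2 to 83 TPM. Rac3 stood at 121 TPM in PkcdRed library 2 with the others at 0 to 13.2 TPM, and Rac1 at 755 TPM in PkcdRed library 1 with the others at 113 to 209 TPM. In SstRed libraries, Hvcn1 stood at 2.2 TPM in library 3 with the others at 0 to 0.355 TPM. Prkcb stood at 94.9 TPM in SstRed library 2 with the others at 0.878 to 13.1 TPM, and the neuron markers of that library summed to 507 TPM with the others at 118 to 166 TPM. The cause of these gaps was not tested.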

How the results depend on the processing

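No member passed the age class comparison in any of the 14 alternatives run for it, and Cybb, which could be tested only with no filter and in both limma fits, did not pass there (adjusted p 0.608 to 0.774). Between PkcdRed and SstRed libraries, 32 genes were called, and 269 with no filter, 454 with DESeq2, 149 and 72 with limma on log2(TPM + 1) and log2(TPM + 0.1), and 10 to 52 with 1 library left out. Of the pathway genes, 2 were called, and 15, 20, 12 and 4 in the same order, and 1 to 3 with 1 library left out. For age class 6 genes were called, and 2 with RLE scaling, 2 with the filter of 10 CPM, 248 with no filter, 555 with DESeq2, 69 with limma on log2(TPM + 1), and 0 to 2 with 1 library left out. Within PkcdRed 1 gene was called, and 60 with no filter, 246 with DESeq2, 0 with the filter of 10 CPM and with both limma fits, and 0 to 1 with 1 library left out. For the interaction 0 genes were called, and 25 with no filter, 79 with DESeq2 and 0 with each library left out. The fold change of Rac1 turned negative in both limma fits (-0.02 and -0.01) and with no age term (-0.13), and ranged from -0.21 to 0.45 with 1 library left out, and that of Rac3 from -0.37 to 2.27. With 1 library left out, the age class fold changes of Cyba, Ncf1, Ncf4 and Rac2 ranged from -0.03 to 0.55, -1.74 to 0.09, -0.22 to 2.62 and -0.49 to 0.72. The cause was not tested.

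With the replicate number as a block, 24 genes and 2 pathway genes were called between the populations, and Vav1 passed. The log2 fold change of Ncf4 was 4.11 with the block and 2.37 without it. Same-numbered libraries deviated from their population means with correlations of 0.0764, 0.124, 0.0615 and 0.174. Such libraries also share an age class, so these values cannot tell whether they were handled together. In the older libraries 1 read is worth 0.396 to 1.04 CPM. For SstRed libraries 3 and 4 it is 0.641 and 0.396 CPM, which limits Hvcn1, Ncf1 and Cybb there.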
